A study of Mus musculus with 6 samples.

Results

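Expression of 34 listed target genes of the transcription factor p53, including the p53 gene Trp53 itself and leaving out Cdkn1a, which encodes p21, was examined in microglia of mPGC-1α mice and their PGC-1αf/f controls. The genes were listed by symbol, and each was represented by its brightest probe, the one with the highest mean log2 intensity over all 6 arrays. All 34 had a probe, out of 23462 genes with a named probe on the array, and 30 of them were among the 13085 genes whose brightest probe could be tested. The brightness that chose the probe was not compared further. The RNA came from primary microglia, the resident immune cells of the brain, of male mice 10 weeks old on a C57BL/6 background, selected magnetically through the surface receptor P2RY12. PGC-1αf/f mice carry a loxP-flanked allele of PGC-1α, a coactivator that drives mitochondrial genes, together with an eGFP gene, and the littermates used as controls lacked Cre. mPGC-1α mice carry the same allele and a Cre recombinase placed in the Cx3cr1 locus, which is active in microglia and in some blood-derived myeloid cells and which works only after tamoxifen. Once Cre has acted, the allele makes extra PGC-1α, so mPGC-1α stands for overexpression and not for deletion. Per the methods, tamoxifen was given on consecutive days and followed by an interval before experiments. The study describes mice of both genotypes as treated with it in its imaging and stroke experiments, and for the control mice of these arrays it is not stated in so many words. Each group had 3 arrays, and the labels do not say that each array stands for a separate mouse, so the p-values below measure the spread between samples, which may be in part technical.

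p53 is held at a low level in unstressed cells by the ubiquitin ligase Mdm2, whose own gene p53 switches on. DNA damage and other stress release p53, which then binds DNA as a tetramer at paired half-sites and raises genes for cell cycle arrest, apoptosis, DNA repair, metabolism and its own feedback. Several of these genes also answer to other pathways: Plk2, Plk3, Btg2 and Gadd45a to growth factor and stress kinase signals, and Tap1, Pmaip1 and Fas to interferon.

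Half-sites and related motifs were searched on both strands in RefSeq promoter windows, which run from 250 bases before to 50 bases after an annotated start in the build GRCm38.p6. Windows were held for 26 of the 34 genes. A p53 half-site, made of purines, a C, a pair of A or T bases, a G and pyrimidines, lay in the window of 11 of these 26 genes (42.3%), against 9.55% of all 27025 genes with a window. No listed gene held the full element of paired half-sites with a spacer of up to 13 bases, which 0.0740% of all genes held. Many p53 sites lie in introns or farther upstream, as in Mdm2 and Gadd45a, outside such windows. Half-sites are shown for the genes whose values on each array are given below, and not for Ei24, Polk and Ppm1d. Each is given with 10 bases on either side, in the direction of the gene and with the half-site in capitals:
Gadd45a p53 half-site, chr6:67037428-67037457, minus strand: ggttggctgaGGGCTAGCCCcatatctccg
Aen p53 half-site, chr7:78895927-78895956, plus strand: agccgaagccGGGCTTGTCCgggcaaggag
Bax p53 half-site, chr7:45467080-45467109, minus strand: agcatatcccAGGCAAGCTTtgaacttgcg
Ccng1 p53 half-site, chr11:40755452-40755481, minus strand: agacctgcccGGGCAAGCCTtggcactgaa
Trp53 p53 half-site, chr11:69580274-69580303, plus strand: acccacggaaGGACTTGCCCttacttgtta
Mdm2 p53 half-site, chr10:117710925-117710954, minus strand: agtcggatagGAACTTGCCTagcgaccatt
Sesn1 p53 half-site, chr10:41887256-41887285, plus strand: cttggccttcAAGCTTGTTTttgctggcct
Rps27l p53 half-site, chr9:66946193-66946222, plus strand: ctttgggctcGGGCTTGCTTtccttcaggc
Rps27l p53 half-site, chr9:66946296-66946325, plus strand: gggcttgttgAGACTTGTCCgggcgacacg

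A cyclic AMP response element (CRE, TGACGTCA), the binding site of CREB and ATF factors, lay in the windows of 3 of the 26 listed genes, against 2.03% of all genes. In Ppm1d, which holds both, it does not overlap the half-site. These matches are shown in the same way, with the CRE in capitals:
Plk2 CRE, chr13:110394972-110394999, plus strand: gcgctcgccgTGACGTCAcgaggccccg
Btg2 CRE, chr1:134079304-134079331, minus strand: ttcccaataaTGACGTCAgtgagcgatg
Ppm1d CRE, chr11:85311159-85311186, plus strand: gcgagccgagTGACGTCAtcaggagaaa

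For the pair of arrest genes whose differences were largest, the whole 250 bases before the start are given, with the CRE of Plk2 and the half-site of Gadd45a in capitals:
Plk2 bases before the start, chr13:110394794-110395043, plus strand: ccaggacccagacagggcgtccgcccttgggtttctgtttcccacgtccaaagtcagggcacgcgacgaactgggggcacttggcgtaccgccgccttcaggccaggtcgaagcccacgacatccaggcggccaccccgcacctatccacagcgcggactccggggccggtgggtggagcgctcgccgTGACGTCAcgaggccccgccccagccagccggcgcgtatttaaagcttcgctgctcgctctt
Gadd45a bases before the start, chr6:67037408-67037657, minus strand: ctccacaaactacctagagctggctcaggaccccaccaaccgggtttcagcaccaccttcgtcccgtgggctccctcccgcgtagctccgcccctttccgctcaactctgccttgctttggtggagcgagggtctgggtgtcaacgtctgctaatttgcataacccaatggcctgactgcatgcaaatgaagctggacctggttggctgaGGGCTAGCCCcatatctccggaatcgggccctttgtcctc

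An AP-1 site (TGANTCA) was found in the window of Fas (3.85% of the 26 genes, against 8.97% of all genes), and an interferon element (GAAA, any 2 bases, GAAA) in that of Plk2 (3.85%, against 3.99%). A match of letters is a description and was not tested as a binding site.

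Between 27025 and 30272 of 59305 spots were well above background on each array and none was saturated. All arrays lay on 1 slide, PGC-1αf/f in row 1 and mPGC-1α in row 2, so slide row and group cannot be told apart. Replicate 3 of PGC-1αf/f stood apart from the other arrays, with a mean correlation of 0.928 to them. All 12 microglia markers were well above background on all 6 arrays. Of 20 blood leukocyte markers, 14 were well above background on all 6 arrays, among them the neutrophil genes S100a8 and S100a9, the T cell genes Cd3e, Cd3g, Cd4 and Cd8a and the cytotoxic lymphocyte gene Nkg7, while the B cell gene Cd79a and the natural killer receptor gene Klrb1c, for example, were so on none. Over these 14, the summed level (the 75th percentile of the array taken as 1) ranged from 17.6 to 118 in PGC-1αf/f, with replicate 3 lowest, and from 117 to 144 in mPGC-1α. All 14 had a higher mean in mPGC-1α, the direction of most p53 targets, with a median difference of 1.08 on the log2 scale, and none had an unadjusted limma p under 0.05. The same held for all 7 endothelial and mural markers well above background on all 6 arrays, of 11 listed, with a median of 0.51 and, over 6 with every value, a summed level of 1.77 to 4.77 in PGC-1αf/f and 3.46 to 6.34 in mPGC-1α. The mean was lower in mPGC-1α for 11 of the 12 microglia markers, with a median difference of -0.24 on the log2 scale, and the largest was that of Cx3cr1, whose locus carries the Cre (-0.51). Their summed level, over the 6 with a value on every array, was 96.9 to 116 in PGC-1αf/f and 88.9 to 101 in mPGC-1α. Of 12 oligodendrocyte markers, 8 were well above background on all 6 arrays, and 7 of these had a lower mean in mPGC-1α, with a median difference of -0.55. The summed level of the 8 was 16.6 to 20.0 in PGC-1αf/f and 11.8 to 14.3 in mPGC-1α. An unadjusted limma p under 0.05 was reached by 3 of the 8, all lower, and by Cx3cr1 alone of the microglia markers. Of 8 neuron markers well above background on all 6 arrays, 7 had a higher mean, with a median difference of 0.21. Of 8 astrocyte markers so measured, 4 were higher and 4 lower, with a median of 0.03. No neuron or astrocyte marker had an unadjusted p under 0.05. The part of these markers in the differences below was not tested. The brighter probe for Ppargc1a, which encodes PGC-1α, averaged -0.49 ± 0.70 (SD, n = 3) in PGC-1αf/f and 0.31 ± 0.25 in mPGC-1α, a difference of 0.80 (adjusted p = 0.31), while the dimmer probe differed by 0.59 (adjusted p = 0.45). Whether either probe lies in the transcript of the added allele is not known here, so these values may leave it out.

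Most p53 targets had a higher mean in mPGC-1α microglia, but none of the 30 tested passed the threshold. Values are log2 intensity minus the 75th percentile of the array, and differences are mPGC-1α minus PGC-1αf/f on that log2 scale, with the SE and p of limma, adjusted over all 25257 tested probes. In bulk samples, fewer cells of a type and less RNA per cell cannot be told apart. With an adjusted p under 0.05, 0 of the 30 were called, against 0.0535% of all tested genes and 0.0792% of probes, and the lowest adjusted p was 0.071. At an unadjusted p under 0.05, 9 of 30 were higher and 0 lower, where the background over all tested genes was 7.83% higher and 5.74% lower. All 30 were well above background on all 6 arrays, so none entered the test through 1 group alone. Their median difference was 0.21, against 0.02 over all tested genes. The mean was above 0 for 22 and below 0 for 8, where 52.9% of all tested genes lay above 0. When arrays were aligned at their median instead, which lowered the median over all probes to -0.14, the split was 17 to 13 and the median of the listed genes 0.067; Mdm2, Zmat3, Ei24, Polk and Tap1 were then below 0. An unadjusted p under 0.05 was then reached by 5 that were higher (5.14% of all probes were) and by 1 that was lower. Without PGC-1αf/f replicate 3, 28 could be tested and their median was 0.18, and an unadjusted p under 0.05 was reached by 7 that were higher (6.08% of all probes) and by 1 that was lower. Of 10 genes with more than 1 tested probe, 7 had the same sign on all of them, and Mdm2, Ppm1d and Tap1 did not. The groups did not overlap for 8 genes that were higher and 1 that was lower, out of 27 with a value on every array, against 12.4% and 10.7% of all genes. A difference of at least 1 on the log2 scale was seen for 3 genes (Plk2, Phlda3 and Gadd45a), against 3.87% of all genes.

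**Figure D1:**
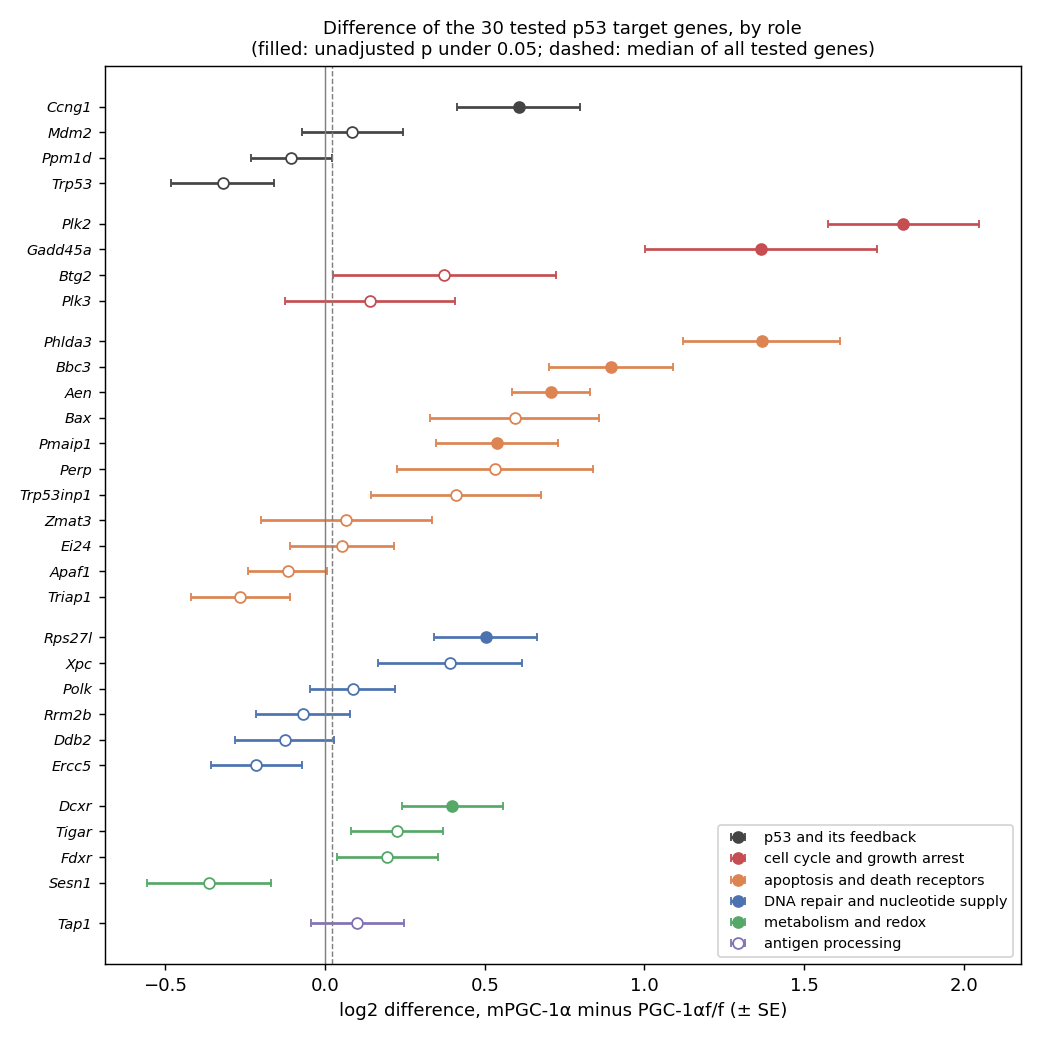
Difference (mPGC-1α minus PGC-1αf/f, log2 scale, points) and its SE (bars) for the 30 tested p53 targets, grouped by role; filled points have an unadjusted p under 0.05 and the dashed line is the median of all tested genes, 0.02. Plk2, at 1.81, lies farthest from 0, and no gene on the left of 0 has a filled point.

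The 4 genes of cell cycle and growth arrest all had a higher mean in mPGC-1α, with a median difference of 0.87. Plk2, a kinase that acts in centriole duplication and at synapses, stood at -2.84, -3.45 and -3.52 on PGC-1αf/f replicates 1, 2 and 3 and at -1.70, -1.52 and -1.14 on mPGC-1α replicates 1, 2 and 3. The groups were well separated, and every mPGC-1α array was above every control array. The difference was 1.81 ± 0.24 (SE), 3.51-fold, with an adjusted p of 0.071. Plk2 was well above background on all 6 arrays. Its control replicates 2 and 3 lay as low as Pidd1, which was so on 2 arrays of each group. With normexp background correction the difference was 1.41, the lowest of the alternatives. Plk2 passed in 2 of 18 alternatives, with an adjusted p of 0.036 when slide column entered as a random block and of 0.0094 with array weights. In the others the adjusted p ran up to 0.31, and it was 0.16 with the replicate number as a block. It was the largest among the listed genes, and its promoter holds the CRE printed above.

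Gadd45a, a gene of growth arrest and DNA damage, read -0.26, 0.14 and -1.19 in the controls and 0.79, 0.62 and 1.37 in mPGC-1α. The groups did not overlap, but control replicate 3 was far below the other controls. The difference was 1.37 ± 0.36 (adjusted p = 0.18), and 0.99 without that array. The antiproliferative gene Btg2 lost 3 spots to outlier flags, which left 3.06 on PGC-1αf/f replicate 3 and 3.13 and 3.74 on mPGC-1α replicates 2 and 3. Its difference of 0.37 thus rested on 3 arrays, and was 0.20 with the flagged spots kept and 0.07 without mPGC-1α replicate 3. The other Btg2 probe, with a value on 4 arrays, differed by 0.0066. The stress kinase gene Plk3 had overlapping groups and a difference of 0.14 ± 0.27, which was -0.15 without PGC-1αf/f replicate 1.

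**Figure D2:**
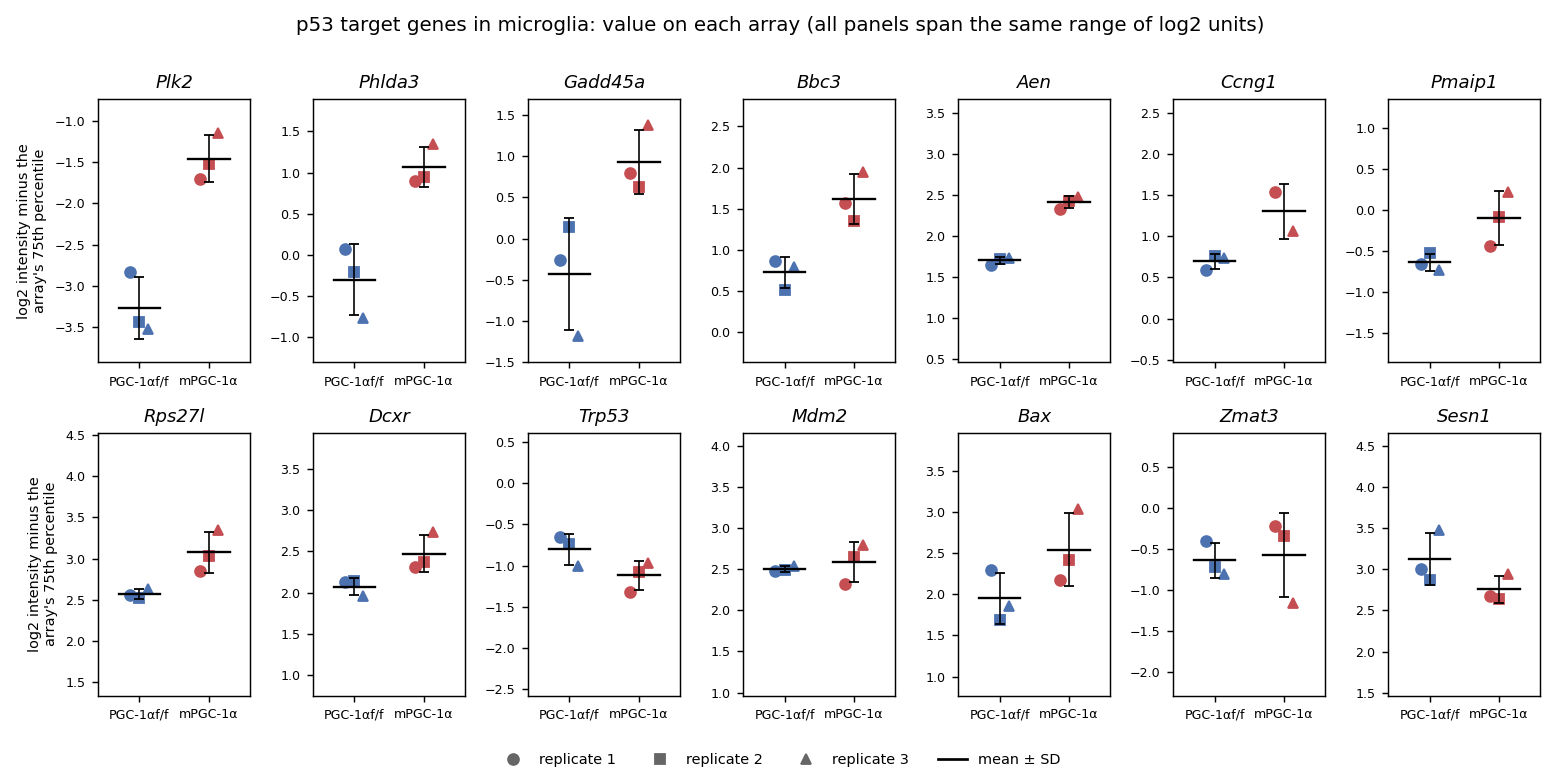
Log2 intensity minus the 75th percentile of the array (y axis, each panel spanning the same range) on each of the 6 arrays for 14 p53 targets, with the mean and SD of each group. The 9 genes with an unadjusted p under 0.05 come first, followed by Trp53, Mdm2, Bax, Zmat3 and Sesn1; the groups are separate in the first 9 panels and overlap in the other 5.

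Of the 15 genes of apoptosis and death receptors, 11 were tested, 9 of them with a higher mean and 2 with a lower one, and their median difference was 0.53. Phlda3, which restrains Akt signalling, was measured at 0.07, -0.20 and -0.77 in PGC-1αf/f and at 0.90, 0.95 and 1.35 in mPGC-1α. All mPGC-1α arrays were above all controls, of which replicate 3 was lowest. The difference was 1.37 ± 0.25 (2.58-fold, adjusted p = 0.11, and from 0.022 with array weights to 0.33 over the alternatives), and 1.13 without PGC-1αf/f replicate 3.

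Bbc3, which encodes the BH3-only protein PUMA, gave 0.87, 0.52 and 0.79 in the controls against 1.57, 1.35 and 1.95 in mPGC-1α. The groups did not overlap, and the difference was 0.90 ± 0.19 (1.86-fold, adjusted p = 0.13, and from 0.042 with array weights to 0.41 over the alternatives). Aen, an exonuclease that cuts DNA during apoptosis, had the tightest replicates, at 1.65, 1.73 and 1.74 in PGC-1αf/f and 2.33, 2.42 and 2.48 in mPGC-1α. Every mPGC-1α array was above every control, and all 3 Aen probes behaved alike, with differences of 0.71, 0.71 and 0.63. The brightest had an SE of 0.12 and an adjusted p of 0.097, which ran from 0.024 with array weights to 0.41 over the alternatives. Its half-site is among those printed above.

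Pmaip1, which encodes the BH3-only protein NOXA, read -0.66, -0.52 and -0.73 in PGC-1αf/f and -0.44, -0.08 and 0.22 in mPGC-1α. The groups did not overlap, although mPGC-1α replicate 1 was only just above control replicate 2, and the difference was 0.54 ± 0.19 (adjusted p = 0.25). Bax, the effector that permeabilizes mitochondria, read 2.30, 1.69 and 1.86 against 2.17, 2.42 and 3.04. These groups overlapped, since control replicate 1 was above mPGC-1α replicate 1, and the difference was 0.59 ± 0.26 (adjusted p = 0.32), or 0.35 without mPGC-1α replicate 3, its highest array. A dimmer Bax probe did separate the groups, with -0.12, -0.89 and -0.65 against 0.16, 0.27 and 0.62, a difference of 0.90 ± 0.23 and an adjusted p of 0.17.

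Zmat3, an RNA-binding protein, had values of -0.40, -0.72 and -0.80 in PGC-1αf/f and of -0.22, -0.34 and -1.16 in mPGC-1α. Both the highest and the lowest array were mPGC-1α, and the difference was 0.07 ± 0.27. The membrane protein gene Perp differed by 0.53 ± 0.31, which was 0.20 without PGC-1αf/f replicate 3, its lowest array at 0.56. Trp53inp1, a p53 cofactor, differed by 0.41 on the 3 arrays left by outlier flags and by 0.25 with them kept. Differences for the autophagy gene Ei24 (0.05), the apoptosome gene Apaf1 (-0.12) and the caspase inhibitor gene Triap1 (-0.27) were within 2 SE of 0.

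The death receptor genes Fas, Tnfrsf10b and Eda2r and the death domain gene Pidd1 were not tested. Fas and Pidd1 were well above background on 2 arrays of each group, Tnfrsf10b on 1 of each and Eda2r on none, and no fold is given.

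In the group of p53 and its feedback genes, 2 of 4 had a higher mean and 2 a lower one, with a median difference of -0.01. Trp53 itself read -0.65, -0.74 and -1.01 in PGC-1αf/f and -1.32, -1.08 and -0.97 in mPGC-1α. The groups overlapped through mPGC-1α replicate 3, and the difference was -0.32 ± 0.16 (adjusted p = 0.36). Mdm2, the main inhibitor of p53, read 2.48, 2.49 and 2.54 in the controls and 2.32, 2.65 and 2.80 in mPGC-1α. The mPGC-1α arrays lay on both sides of the controls, and the difference was 0.09 ± 0.16 (adjusted p = 0.80), while a dimmer Mdm2 probe gave -0.17. With arrays aligned at their median, Mdm2 differed by -0.047.

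Ccng1, cyclin G1, which recruits a phosphatase to Mdm2, read 0.60, 0.76 and 0.73 in PGC-1αf/f and 1.54 and 1.07 on mPGC-1α replicates 1 and 3, the spot of replicate 2 being flagged. Both values were above all controls, and the difference was 0.61 ± 0.19 (adjusted p = 0.24). With the flagged spot kept, replicate 2 read 1.53 and the difference was 0.68, while without mPGC-1α replicate 1 it was 0.37. The phosphatase gene Ppm1d, which turns off the damage response, differed by -0.11 ± 0.13, and its 2 probes had opposite signs.

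Among 6 genes listed under DNA repair and nucleotide supply, 3 had a higher mean and 3 a lower one, with a median of 0.01. The only 1 with an unadjusted p under 0.05 was Rps27l, a ribosomal protein paralog that was placed in this group. Rps27l read 2.56, 2.52 and 2.63 in PGC-1αf/f and 2.85, 3.03 and 3.34 in mPGC-1α. The groups did not overlap, and the difference was 0.50 ± 0.16 (adjusted p = 0.23). Ercc5, an endonuclease of nucleotide excision repair, was the gene with fully separate groups in the other direction, at -2.25, -2.44 and -2.44 against -2.52, -2.48 and -2.77. That gap was narrow, and the difference was -0.22 ± 0.14 (adjusted p = 0.46), or -0.13 without mPGC-1α replicate 3. The damage recognition genes Xpc (0.39 ± 0.22) and Ddb2 (-0.13 ± 0.16), the translesion polymerase gene Polk (0.09 ± 0.13) and the ribonucleotide reductase gene Rrm2b (-0.07 ± 0.15) had overlapping groups. With an array left out, Xpc ran from 0.23 to 0.63, Ddb2 from -0.22 to -0.035 and Polk from 0.0024 to 0.13. A dimmer Ddb2 probe separated the groups, at 2.08, 1.81 and 1.83 in PGC-1αf/f and 1.76, 1.67 and 1.59 in mPGC-1α, a difference of -0.23 (adjusted p = 0.42).

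Of 4 genes of metabolism and redox, 3 had a higher mean in mPGC-1α, with a median difference of 0.21. Dcxr, a xylulose reductase, read 2.13, 2.14 and 1.96 in PGC-1αf/f and 2.31, 2.37 and 2.73 in mPGC-1α. The groups did not overlap, and the difference was 0.40 ± 0.16 (adjusted p = 0.28). Sesn1, a sestrin that inhibits mTORC1, went the other way, with 3.01, 2.87 and 3.48 against 2.68, 2.64 and 2.95. Its groups overlapped, and the difference of -0.36 ± 0.19 (adjusted p = 0.38) was -0.19 without PGC-1αf/f replicate 3, its highest array. The glycolytic regulator gene Tigar differed by 0.23 ± 0.14 and the ferredoxin reductase gene Fdxr by 0.20 ± 0.16. Tap1, the peptide transporter of antigen presentation, differed by 0.10 ± 0.15.

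For 8 of the 9 genes with an unadjusted p under 0.05 the groups did not overlap, and for Ccng1 the values at hand did not either, so leaving out an array could move only the size of their differences. The widest range was that of Gadd45a, 0.99 when PGC-1αf/f replicate 3 was left out and 1.66 when replicate 2 of that group was, and the narrowest that of Aen, from 0.67 to 0.75. Without replicate 3 of both groups, the difference was 0.77 for Gadd45a, 0.33 for Pmaip1, 0.21 for Dcxr and 0.30 for Bax. None of the 30 passed the threshold with any array left out. Slide columns 1 and 2 each held an array of both groups, and 8 of these 9 genes had a value on all 4 arrays. With groups that do not overlap, the direction within a column is given and only the size can vary, which was 1.13 and 1.92 for Plk2 and 0.68 and 0.70 for Aen. Over the 27 tested genes with such values, 14 were higher in both columns, 5 were lower in both and the others had opposite signs. The 14 include the 8 above, whose direction was given. The same count was not made over all tested genes, so this split has no background to be judged against.

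**Figure D3:**
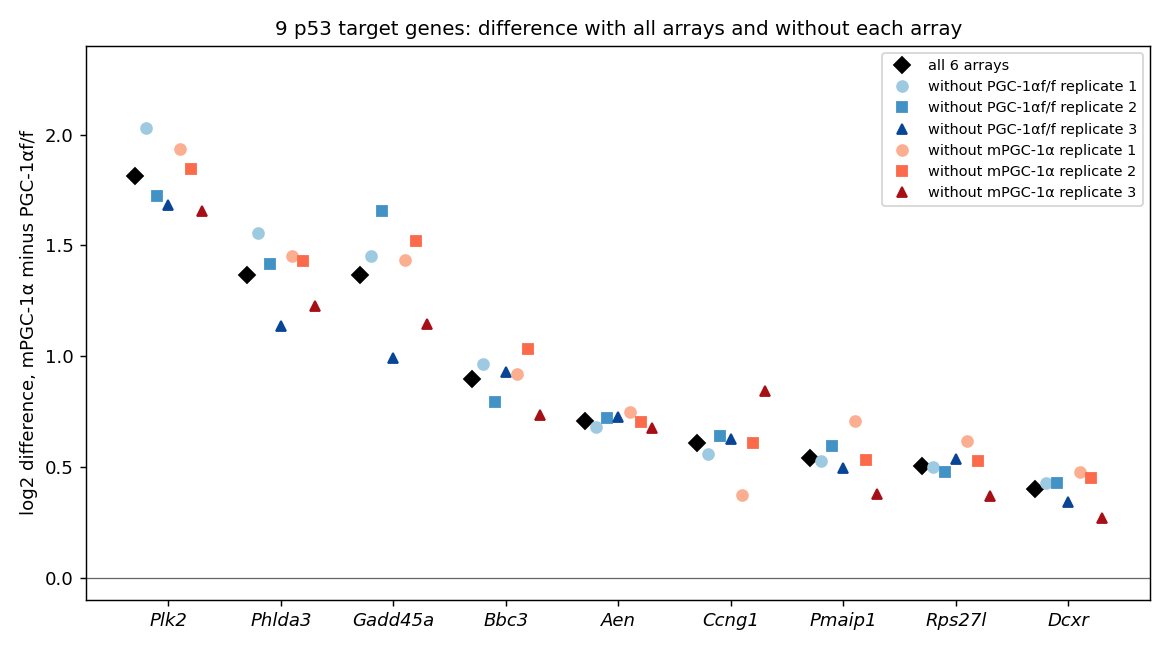
Difference (y axis, log2 scale, mPGC-1α minus PGC-1αf/f) of the 9 p53 targets with an unadjusted p under 0.05, with all 6 arrays (diamonds) and with each array left out. The direction is set by groups that do not overlap, so the spread of the points shows size alone; for Gadd45a and Phlda3 the lowest point is that without PGC-1αf/f replicate 3.

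The rest of the pathway was read from lists chosen with earlier results known. Counts and medians are given over genes well above background on all 6 arrays, where all tested genes had a median of 0.01. Among 25 further p53 targets, 17 were so, 13 with a higher mean and 4 with a lower one, and their median difference was 0.32. Of these, 1 passed the threshold, Cdkn1a (p21, the inhibitor of cyclin-dependent kinases), which was higher by 3.00 ± 0.19 (adjusted p = 0.0073). Another 3 entered the test through mPGC-1α alone, among them the stress cytokine gene Gdf15, which was well above background on 2 of 3 control arrays and was higher by 2.29 ± 0.19 (adjusted p = 0.017). Cdkn1a passed in 14 of 18 alternatives (adjusted p up to 0.083). Gdf15 passed in 10 of 17 (up to 0.14), but the group where it was higher let it into the test. Its passing thus cannot be set beside that of Cdkn1a. Neither passed with the replicate number as a block or without PGC-1αf/f replicate 2, mPGC-1α replicate 2 or mPGC-1α replicate 3. Gdf15 also did not pass without PGC-1αf/f replicate 1, without replicate 3 of both groups or with no filter on dim probes.

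Among 22 regulators of p53, which act on the protein and include the kinases Atm and Atr, 16 were well above background on all 6 arrays, 5 with a higher mean and 11 with a lower one, and none passed, with a median of -0.05. The largest differences among these were those of Trp53bp1, a damage signalling protein (-0.47), and Atm (-0.40). The p53 relative Trp73 differed by 0.89 (adjusted p = 0.43) but was well above background on 2 of 3 control arrays, and was named after its values were seen. Of 25 cell cycle genes that p53 represses through p21, all tested, 5 entered the test through mPGC-1α alone. The other 20 had a median of 0.76, with 18 higher and 2 lower, and none of them passed or had an unadjusted p under 0.05.

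**Figure D4:**
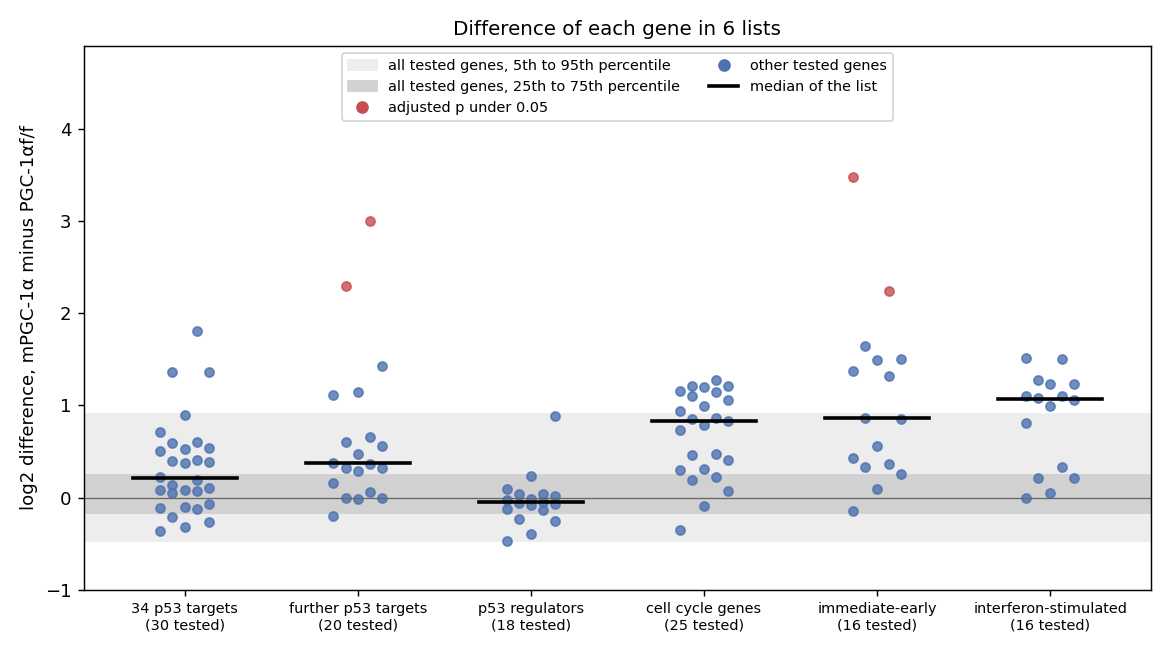
Difference (y axis, log2 scale, mPGC-1α minus PGC-1αf/f) of each tested gene in 6 lists; bars are medians, red points passed an adjusted p of 0.05, genes that entered the test through 1 group are included, and the grey bands hold the central part of all tested genes (from -0.47 at the 5th to 0.91 at the 95th percentile). The p53 targets have a median of 0.21 and no red point, and 2 further targets and 2 immediate-early genes are red. Of these 2 further targets, Gdf15 entered the test through mPGC-1α alone.

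Levels of the lists were likewise taken over genes well above background on all 6 arrays. The cell cycle list, with 19 such genes that had every value, was lowest on PGC-1αf/f replicate 3, at a mean level of -2.19, against -1.27 and -0.54 on the other controls and -0.999, -0.45 and -0.54 in mPGC-1α. The groups overlapped, and the level on that array moved with that of the leukocyte markers, where the list of 14 stood at -0.92 against 1.27 to 2.10 elsewhere. Their part in the difference was not tested. The list of p53 targets was the lowest on that array too, but by little: its mean over 27 genes was 0.34, 0.32 and 0.23 in PGC-1αf/f and 0.53, 0.60 and 0.70 in mPGC-1α. The array held the lowest value for 8 of these 27 genes, Gadd45a, Phlda3 and Perp among them. The same count was not made over all tested genes.

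Genes of other stimuli that share targets with p53 were set beside them. Of 16 immediate-early genes, which answer to growth factors and stress kinases within minutes, 15 had a higher mean, with a median of 0.86, and 2 passed, Fosb by 3.48 (adjusted p = 0.017) and Dusp1 by 2.24 (adjusted p = 0.012). Fosb passed in 12 of 18 alternatives (adjusted p up to 0.14) and Dusp1 in 13 (up to 0.13). Neither passed with the replicate number as a block, or without PGC-1αf/f replicate 2, mPGC-1α replicate 2, mPGC-1α replicate 3 or replicate 3 of both groups, and Fosb did not without PGC-1αf/f replicate 1. Of 16 interferon-stimulated genes tested, 15 had a higher mean, with a median of 1.07, and none passed (11 higher at an unadjusted p under 0.05), Isg15 differing by 1.51. The 4 arrest genes described above, which had a median difference of 0.87, are those of the 34 that also answer to such early signals, and the 2 tested interferon genes among them, Pmaip1 and Tap1, had a median of 0.32. Without both, 24 tested p53 targets had a median of 0.14, with 16 higher and 8 lower, and 6 of them had an unadjusted p under 0.05 (Phlda3, Bbc3, Aen, Ccng1, Rps27l and Dcxr). Of all 12372 genes well above background on all 6 arrays, 6367 had a higher mean, and 816 were higher at that level. How much the other stimuli contribute to the p53 targets was not tested.

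**Figure D5:**
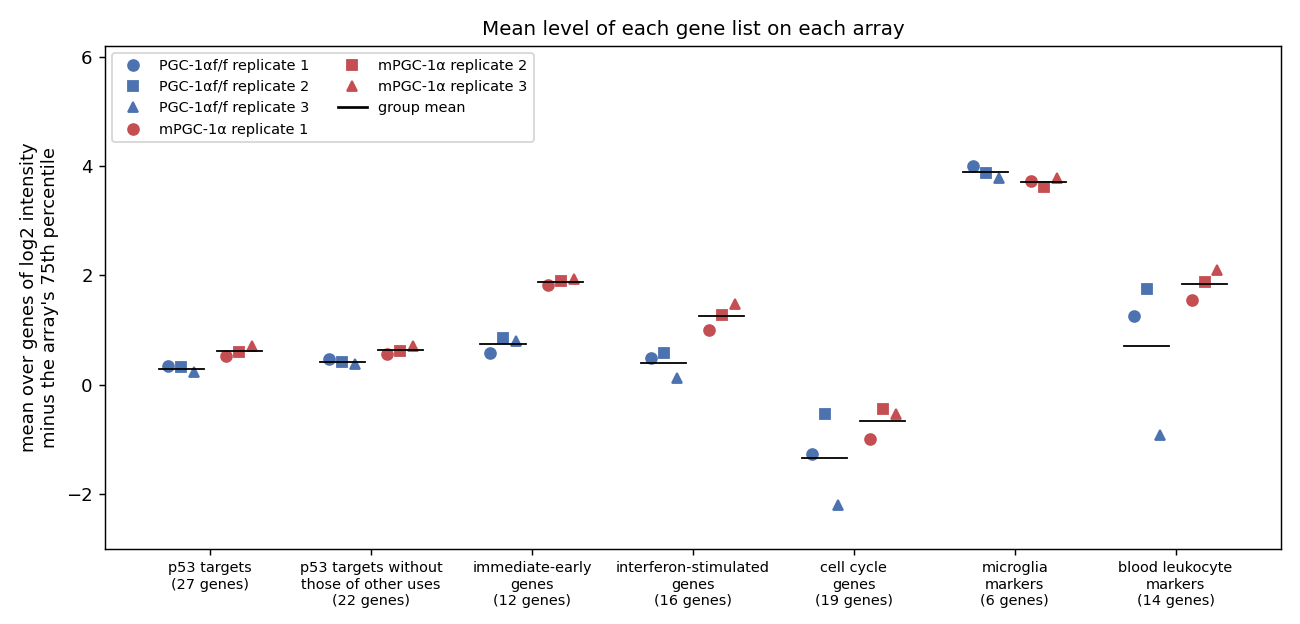
Mean over genes of log2 intensity minus the 75th percentile of the array (y axis) for 7 lists on each array, over genes well above background on all 6; symbols are replicates and bars are group means. The p53 targets are separate between groups by a small gap (0.23 to 0.34 against 0.53 to 0.70), and PGC-1αf/f replicate 3 is far below the other arrays for the cell cycle and leukocyte lists.

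Differences of targets with a half-site near the start ran from -0.36 to 1.37 and those of targets without one from -0.27 to 1.81. The 11 with one had a median difference of 0.09, with 8 higher and 3 lower and 4 at an unadjusted p under 0.05 (Gadd45a, Aen, Ccng1 and Rps27l). The 12 tested genes with a window but no half-site had a median of 0.21, with 9 higher and 3 lower and also 4 at that level (Plk2, Phlda3, Bbc3 and Dcxr). Of all 12372 genes well above background on all 6 arrays, 816 were higher at that level. No test was made of the difference between targets with and without a half-site.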

How the data were processed

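Microglial RNA of 3 PGC-1αf/f and 3 mPGC-1α samples was, per the labels and methods, amplified, labelled with Cy5 and hybridized to 1-colour Agilent arrays. The deposited scanner files hold, per spot, the intensity after background subtraction by Agilent Feature Extraction 11.5.1.1, and the deposited table of the whole series holds those intensity values, not normalized between arrays. The authors name GeneSpring for normalization and no test per gene. Here, control spots and spots flagged as outliers were left out, the 75th percentile of its array was subtracted from each log2 intensity, and spots of a probe were averaged. Of 56605 probes, 33767 had 1 gene symbol, found by transcript accession in RefSeq (GRCm38.p6). A probe was tested where at least 0.5 of its spots were well above background on every array of either group, with limma 3.58.1 in R 4.3.3, two-sided, with Benjamini-Hochberg adjustment over all of them and a threshold of 0.05, and the script was tested on simulated data. Values on every array are given for listed genes with an unadjusted p under 0.05 and for Trp53, Mdm2, Bax, Ccng1, Zmat3, Phlda3 and Sesn1, and up to 4 genes of each other list that were well above background on all 6 arrays are named by size of difference. Btg2, Perp, Ercc5 and the dimmer Bax and Ddb2 probes were given array values after these were seen, and the leukocyte genes were named likewise. Members and lists were chosen with earlier results of these data known. Alternatives covered normalization, background correction, the filter on dim probes, the probe of a gene, blocks, array weights and single arrays. The number of arrays limits the precision.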

Additional observations from a re-analysis of the deposited data

How the results depend on the processing

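None of the 30 tested p53 targets passed the threshold under the main setting, under 3 other scalings or sources of the values (quantile normalization, alignment at the median, the deposited table), normexp background correction on the red median signal (the files used hold no mean signal), either filter on dim probes, the mean over a gene's probes, or with any array left out. The exceptions were slide column as a random block (consensus correlation 0.35), with 1 (Plk2, difference 1.74), and array weights, with 4 (Plk2 1.83, Phlda3 1.20, Bbc3 0.87 and Aen 0.69). Over all probes, 20 passed; the count was 11 with quantile normalization, 11 with alignment at the median, 10 with normexp, 9 with no filter, 4 with probes well above background on all arrays, 138 with the slide column block and 754 with array weights. It ranged from 0 to 25 with an array left out (0 without mPGC-1α replicate 3, 1 without mPGC-1α replicate 2, 2 without PGC-1αf/f replicate 2, 11 without mPGC-1α replicate 1) and was 3 with replicate 3 of both groups left out and 20 with flagged spots kept, choices made after seeing the data, under which 0 p53 targets passed. The median of the p53 targets was 0.067 with alignment at the median, and 0.18 to 0.28 with an array left out. With the replicate number as a block, 0 probes and 0 p53 targets passed; deviations of same-numbered arrays had correlations of 0.14, 0.13 and 0.019. Arrays numbered 1 and those numbered 2 shared a slide column and those numbered 3 did not; pairing over all 3 numbers was not assumed. Direction held in all 18 alternatives for 20 of 30 targets, and for Btg2 and Trp53inp1 in the 16 that could be run. With alignment at the median, Mdm2 (-0.047), Zmat3 (-0.066), Ei24 (-0.081), Polk (-0.046) and Tap1 (-0.032) turned; with normexp, Zmat3 (-0.089); with the mean over probes, Mdm2 (-0.042) and Ppm1d (0.015). With an array left out, Mdm2 ran from -0.018 to 0.22, Zmat3 from -0.11 to 0.36, Plk3 from -0.15 to 0.33, Ei24 from -0.045 to 0.17 and Rrm2b from -0.14 to 0.030. The cause was not tested. With 3 arrays a group, small differences may have been missed, and the smallest detectable one was not worked out. Fas, Tnfrsf10b, Eda2r and Pidd1 lay too near background to compare.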
